A study of Mus musculus with 10 samples.

Results

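Oxidative phosphorylation is carried out by 5 multi-subunit complexes of the inner mitochondrial membrane. The genes described here are those whose symbol starts with Nduf, Uqcr, Atp5 or Cox4 to Cox8, together with Sdha, Sdhb, Sdhc and Sdhd. The rule found 84 genes, measured by 156 of the 22690 probe sets on the array, and 81 of them were tested among 8403 genes. They comprise 33 subunits of complex I, 5 assembly factors of complex I, 4 subunits of complex II, 8 of complex III, 17 genes of complex IV and 17 of complex V. The genes were chosen by name and not by their values in these samples.

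Expression was measured on Affymetrix arrays of RNA from primary mouse embryonic fibroblasts, connective tissue cells grown from E13.5 embryos of mixed C57BL/6 and 129 strain. The wild type had 3 arrays, Snf5-/- had 3 and Brg1-/- had 4. All 10 samples, wild type included, are labelled as infected with a retrovirus carrying Cre recombinase and selected in puromycin at 2.5 ug/ml, so infection and selection were common to the groups. Whether the replicates are different embryos or cultures is not given by the labels, and the p-values below therefore measure only the spread between these arrays. Snf5 (gene Smarcb1) and Brg1 (gene Smarca4) are subunits of SWI/SNF, a complex that uses ATP to move nucleosomes, and the comparisons ask how transcripts differ once either subunit is lost.

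Complex I (NADH dehydrogenase) and complex II (succinate dehydrogenase) feed electrons into the respiratory chain, complex III passes them to cytochrome c, and complex IV (cytochrome c oxidase) hands them to oxygen. The proton gradient built on the way drives complex V, the ATP synthase. Most subunits are encoded in the nucleus and are made together with a few encoded in mitochondrial DNA, which the named probe sets do not cover. Nuclear respiratory factors and ETS family factors are known to act at many of their promoters, and a few subunits of complex IV have isoforms restricted to tissues such as heart and skeletal muscle.

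The arrays did not share a common brightness, and this decided the sign of most values below. Median intensity was 191 to 234 on the wild type arrays, 164 to 189.85 on those of Snf5-/- and 146 to 168 on those of Brg1-/-. Each change is therefore given on 2 scales, the log2 of the deposited intensity and the same values after quantile normalization, which forces every array onto 1 distribution and so measures a gene relative to the rest of its array. In what follows a gene is written as having risen or fallen only where it passed an adjusted p of 0.05 in the same direction on both scales (limma, Benjamini-Hochberg adjustment over all genes tested). The median log2 intensity of 9 spiked hybridization control probe sets was taken on each array and averaged within each group. It differed from that of wild type by -0.09 in Snf5-/- and -0.08 in Brg1-/-, where its SD between the wild type arrays was 0.21. The targeted transcripts went with the labels. Smarcb1 measured 1119, 844 and 891 in wild type and 279.5, 279 and 331 in Snf5-/-, and Smarca4 measured 3829, 2443 and 2275 in wild type and 387, 389.9, 418 and 607 in Brg1-/-.

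The oxidative phosphorylation genes moved with their arrays. On the deposited scale the median of the 81 tested genes, relative to the wild type mean of each gene, was 0.30, -0.09 and -0.21 on the wild type arrays, -0.17, -0.39 and -0.12 on the Snf5-/- arrays, and -0.49, -0.47, -0.34 and -0.51 on the Brg1-/- arrays. The medians of all 8403 genes on the same arrays were 0.28, -0.08 and -0.19, then -0.29, -0.39 and -0.12, then -0.52, -0.54, -0.37 and -0.41. The Brg1-/- arrays were below every wild type array on this scale for the members and for all genes alike, while the Snf5-/- arrays overlapped wild type. After quantile normalization the members' medians were 0.01, 0.00 and 0.00 on the wild type arrays, 0.16, 0.06 and 0.12 on those of Snf5-/-, and 0.12, 0.18, 0.18 and 0.07 on those of Brg1-/-. All 7 mutant arrays then lay above the 3 wild type arrays. The medians of all genes were 0.014, 0.003 and -0.012, then 0.056, 0.001 and 0.036, then 0.030, 0.025, 0.018 and 0.022. These too lay above wild type on every mutant array but Snf5-/- replicate 2, by less than those of the members. Each gene was set against its own wild type mean, which holds the wild type medians near 0 by construction.

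**Figure D1:**
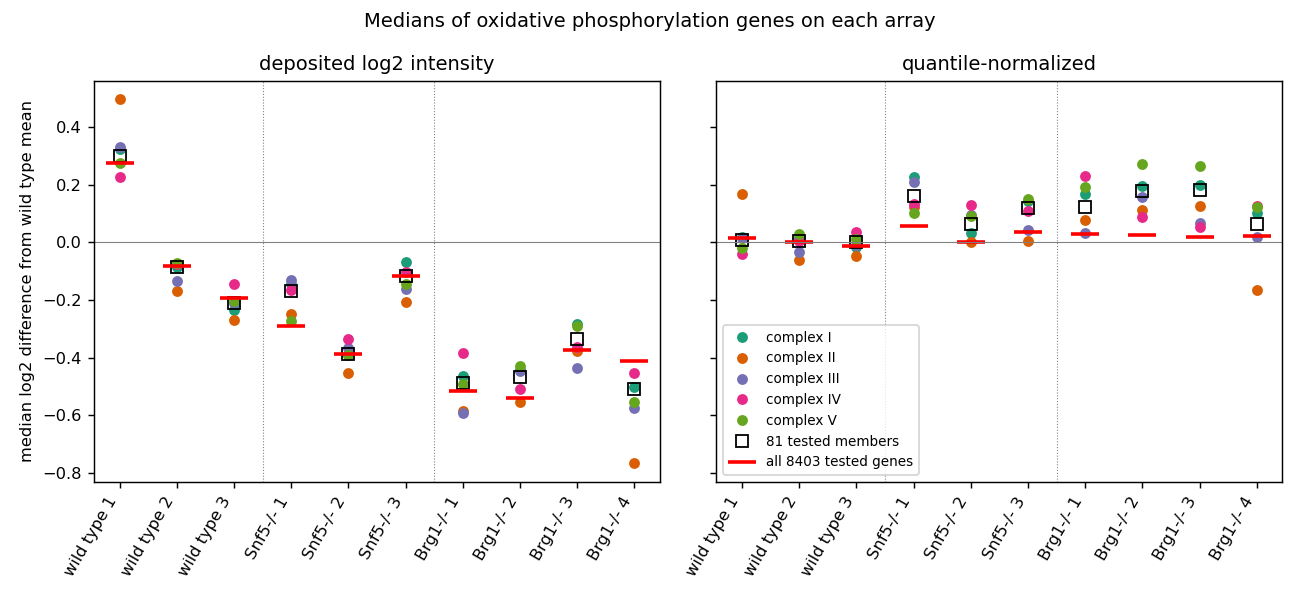
Median log2 difference from the wild type mean (y axis) on each of the 10 arrays (x axis), on the deposited scale (left) and after quantile normalization (right). Coloured points are the medians of complexes I to V, open squares those of the 81 tested members and red bars those of all 8403 tested genes. On the left, members and all genes step down together from wild type to Brg1-/-. On the right the members of the mutant arrays sit at 0.06 to 0.18.

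Against wild type, Snf5-/- cells had few changed oxidative phosphorylation genes. On both scales 1 of 81 members rose, Ndufaf7, against 3.15% of all genes tested, and 0 fell, against 7.46%. After quantile normalization 12 members were higher (14.8%, where 10.6% of all genes were higher) and 0 were lower (7.47% of all genes). On the deposited scale 1 was higher (3.15% of all genes) and 4 were lower (16.1% of all genes), namely Atp5b, Cox8c, Ndufa12 and Ndufs5. The median change of the members was 0.10 (log2) after quantile normalization, where that of all genes was 0.02, and -0.23 on the deposited scale, where that of all genes was -0.27. At an unadjusted p of 0.05 without regard to direction, 21 members passed on the quantile-normalized scale (25.9%, against 31.7% of all genes), as did 21 on the deposited scale (34.6% of all genes). In deposited intensity all 3 Snf5-/- arrays lay below wild type for 18 members (29.7% of all genes) and above it for 2 (4.99%). After quantile normalization they lay above it for 28 members (19.5% of all genes) and below it for 3 (16.1%).

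Against wild type, Brg1-/- cells gave opposite pictures on the 2 scales. On both scales 2 of 81 members fell, Cox5a and Ndufaf1, against 12.9% of all genes tested, and 0 rose, against 3.43%. After quantile normalization 20 members were higher (24.7%, where 14.9% of all genes were higher) and 2 were lower (12.9% of all genes). On the deposited scale 0 were higher (3.43% of all genes) and 45 were lower (55.6%, where 44.1% of all genes were lower). The 20 higher members included 7 of complex V, 7 subunits of complex I, 3 of complex IV, 2 of complex III and 1 assembly factor. Ndufb9 and Ndufa4 passed in opposite directions on the 2 scales, as 8 of all 8403 genes did (0.0952%). Ndufb9, an accessory subunit of complex I, was 0.28 ± 0.08 (SE, log2) after quantile normalization and -0.38 on the deposited scale. Ndufa4, now counted as a subunit of complex IV, was 0.27 ± 0.07 and -0.40. The quantile-normalized call of Ndufb9 was lost without wild type replicate 1 or 3 or Brg1-/- replicate 2 or 3 (adjusted p of 0.0689 to 0.123, limma), and in Snf5-/- without wild type replicate 1 (0.0537). That of Ndufa4 was lost without wild type replicate 1 or 2 (0.0599 and 0.0547). At an unadjusted p of 0.05, 31 members passed after quantile normalization (39.6% of all genes) and 51 on the deposited scale (55.8%). All 4 Brg1-/- arrays lay below wild type in deposited intensity for 48 members (49.2% of all genes) and above it for 0 (3.86%). After quantile normalization they lay above it for 29 members (20.9% of all genes) and below it for 4 (18.4%). Both comparisons with wild type use the same 3 wild type arrays, so their values are given side by side and are not independent of each other.

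The members' shift relative to the array depended on how the arrays were put on a common level. In Brg1-/- the members' median stood 0.11 above that of all genes after quantile normalization and 0.09 above it after cyclic loess, but 0.02 above it on the deposited scale and wherever each array was only multiplied by a constant. In Snf5-/- the same difference was 0.08, 0.06 and 0.04. With each array shifted to a common median, 5 members were higher and 0 lower in Snf5-/- (8.14% and 7.57% of all genes), and 2 were higher and 4 lower in Brg1-/- (10.8% and 15.6% of all genes). The members were bright, with a median intensity of 2610 against 479 (the 91.0th percentile of all genes). Among the 841 genes at or above the 90th percentile of brightness, 46 of them members, the median change in Brg1-/- was 0.01 after quantile normalization and -0.57 on the deposited scale. The members also varied less among themselves than genes in general. The middle 50% of their changes in Brg1-/- spanned 0.02 to 0.29 after quantile normalization, against -0.26 to 0.29 for all genes, and their median SD between wild type replicates was 0.08 against 0.15. That SD was 0.27 on the deposited scale for the members and 0.29 for all genes.

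**Figure D2:**
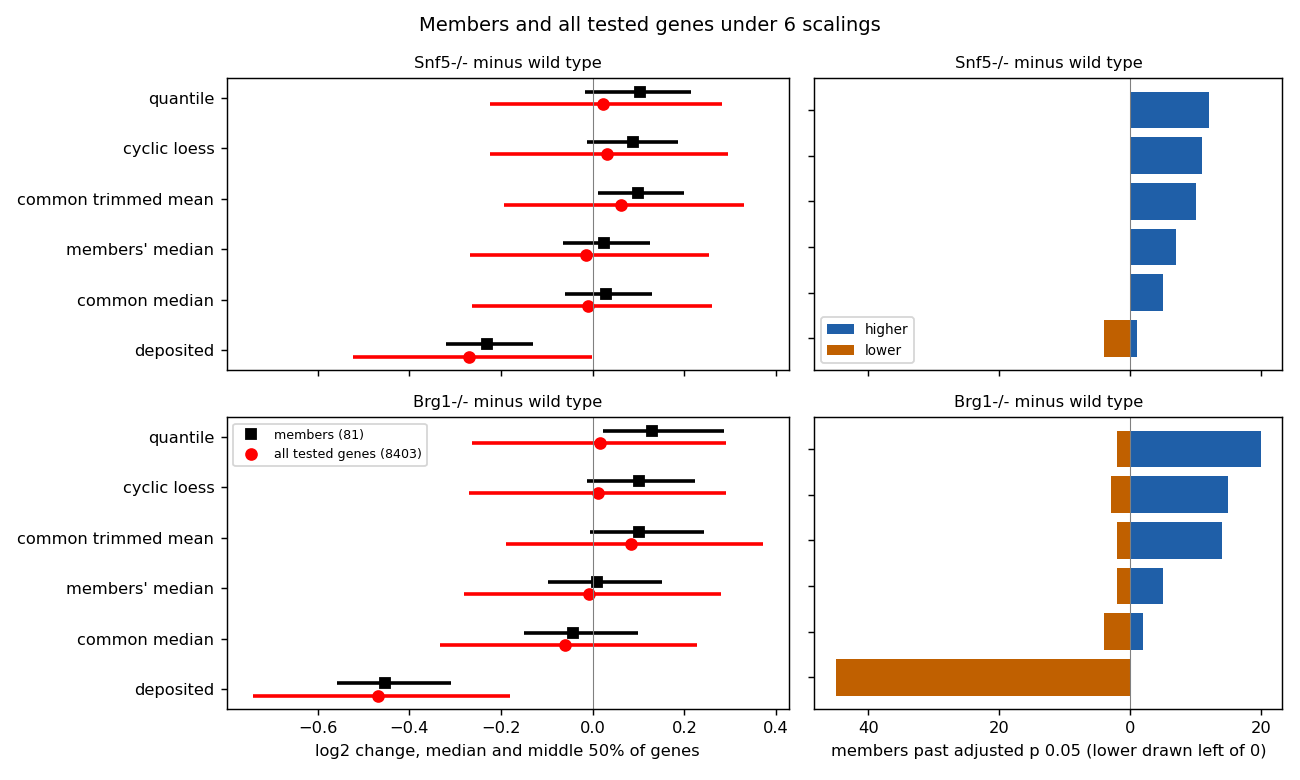
Left, median log2 change (points) and middle 50% of genes (lines) for the 81 members in black and all 8403 tested genes in red, in Snf5-/- (top) and Brg1-/- (bottom) under 6 scalings. Right, number of members past an adjusted p of 0.05, higher to the right and lower to the left. In Brg1-/- the counts run from 20 higher and 2 lower after quantile normalization to 0 higher and 45 lower on the deposited scale.

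Under all 5 scalings that put the arrays on a common level (quantile, cyclic loess, common median, common trimmed mean and the members' own median), 5 members were higher in Snf5-/-: Cox5b, Cox6b2, Ndufa13, Ndufa6 and Ndufaf7. All genes gave 7.47% by that rule, and 0 members were lower (6.6% of all genes). In Brg1-/- Cox5b and Ndufaf7 were higher (10.3% of all genes) and Cox5a was lower (11% of all genes). The rule over 5 scalings, and the choice of Cox5b, Ndufa13, Ndufa6 and Ndufb2 for description, were made after their values were seen.

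Ndufaf7, a mitochondrial methyltransferase needed for the assembly of complex I, was the member that rose in Snf5-/-. Its intensity was 263, 199.6 and 173 on the wild type arrays, 349.8, 321 and 332 on those of Snf5-/- and 279, 287, 285 and 232 on those of Brg1-/-. All 3 Snf5-/- arrays were above all wild type arrays, and the Brg1-/- arrays overlapped wild type on the deposited scale. The change in Snf5-/- was 0.94 ± 0.17 (SE, log2; adjusted p = 0.00253, limma) after quantile normalization and 0.68 ± 0.21 (adjusted p = 0.0285) on the deposited scale. In Brg1-/- it was 0.79 ± 0.15 (adjusted p = 0.00292, limma), but 0.37 ± 0.19 on the deposited scale, which did not pass (adjusted p = 0.12). Its single probe set is among the dimmer members and carries the suffix s_at, which marks probes shared by several transcripts.

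Ndufaf1, an assembly factor that works on early intermediates of complex I, fell in Brg1-/-. It measured 519, 381 and 368 on the wild type arrays, 301, 300.3 and 423 on those of Snf5-/- and 213, 226, 261 and 248 on those of Brg1-/-. The 4 Brg1-/- arrays were below every other array, while Snf5-/- overlapped wild type. The change was -0.39 ± 0.12 (SE, log2; adjusted p = 0.0273, limma) after quantile normalization and -0.82 ± 0.20 (adjusted p = 0.00264) on the deposited scale. It did not pass under the common trimmed mean (adjusted p = 0.121, limma), and leaving out wild type replicate 1, 2 or 3 or Brg1-/- replicate 1 gave adjusted p of 0.09, 0.0614, 0.0708 and 0.0593.

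Cox5a and Cox5b encode the peripheral subunits Va and Vb of complex IV, and in Brg1-/- Cox5b was higher and Cox5a lower after quantile normalization. Cox5b measured 9829.8, 7344 and 7453 on the wild type arrays, 10118, 8782 and 9473 on those of Snf5-/- and 8314, 8145, 8265 and 8377 on those of Brg1-/-. The groups overlapped on the deposited scale, where the other members were mostly lower in the mutants. Relative to the median member of the same array, and set against the wild type mean of that difference, Cox5b stood at -0.04, -0.07 and 0.11 on the wild type arrays, 0.53, 0.58 and 0.30 on those of Snf5-/-, and 0.52, 0.53, 0.33 and 0.55 on those of Brg1-/-. All 7 mutant arrays were above the 3 wild type arrays on that measure. After quantile normalization Cox5b was higher by 0.58 ± 0.07 (SE, log2; adjusted p = 2.37e-04, limma) in Snf5-/- and 0.63 ± 0.07 (adjusted p = 5.71e-05) in Brg1-/-. On the deposited scale the changes were 0.22 (adjusted p = 0.252) and 0.02 (adjusted p = 0.877), and neither passed.

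Cox5a measured 11934, 9107 and 8121 on the wild type arrays, 7852, 6759.7 and 7431 on those of Snf5-/- and 5389, 5738, 5486 and 4810.3 on those of Brg1-/-. The Brg1-/- arrays were the lowest, below all Snf5-/- arrays, which lay below all wild type arrays. The change in Brg1-/- was -0.25 ± 0.07 (SE, log2; adjusted p = 0.0263, limma) after quantile normalization and -0.84 ± 0.14 (adjusted p = 1.16e-04) on the deposited scale. In Snf5-/- it was -0.04 (adjusted p = 0.79) and -0.39 (adjusted p = 0.0696), and neither passed. Its probe sets did not agree. The brightest, which stood for the gene, gave -0.25 in Brg1-/-, the dimmest, with the suffix x_at, gave -0.78 and the remaining one gave 0.08, the last not past the threshold. Without wild type replicate 1 the last of these became the brightest and stood for the gene, and the value was 0.02 (adjusted p = 0.890, limma). Without wild type replicate 2, Brg1-/- replicate 3 or Brg1-/- replicate 4 the adjusted p was 0.0772, 0.0676 and 0.0535.

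The probe sets of Cox5b that passed may not be specific to it. Of 4 tested probe sets, 3 carry the suffix x_at, which marks probes that can also match other transcripts, and a Cox5b pseudogene is known. These 3 gave 0.58, 0.60 and 0.62 in Snf5-/- after quantile normalization and 0.63, 0.63 and 0.71 in Brg1-/-. The fourth, with the suffix a_at, gave 0.30 (adjusted p = 0.254, limma) and 0.24 (adjusted p = 0.302), higher in both but not past the threshold. A further pair of Cox5b probe sets was too dim to test. The Cox5b values are therefore uncertain as to which copy they measure.

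**Figure D3:**
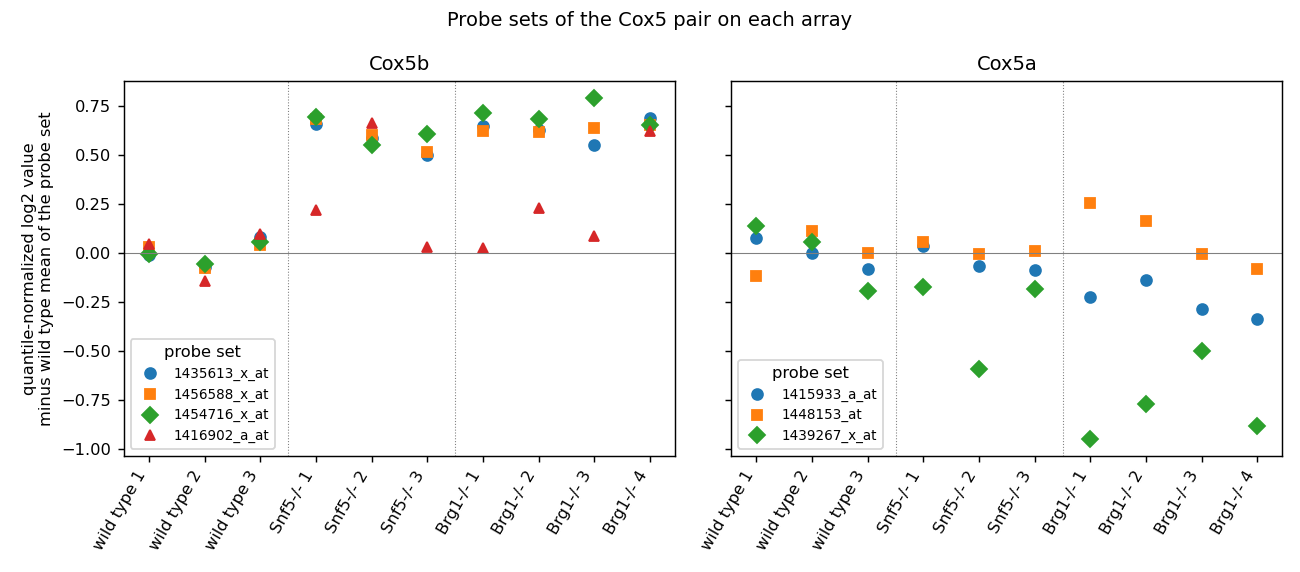
Quantile-normalized log2 value of each tested probe set minus its own wild type mean (y axis) on the 10 arrays (x axis), for Cox5b (left, 4 probe sets) and Cox5a (right, 3 probe sets). On the left, 3 of the probe sets sit at 0.50 to 0.79 on all 7 mutant arrays. On the right the probe sets spread in Brg1-/-, where the x_at probe set lies at -0.95 to -0.50 and the probe set that did not pass at -0.08 to 0.25.

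Promoters of the members were read from RefSeq (build GRCm38.p6) for 70 of the 84 genes, which gave 75 windows from 250 bases before to 50 after the annotated start. Letters of 7 motifs were searched on both strands. The core of the site of nuclear respiratory factor NRF1, which reads GCGC, any 2 bases and GCGC again, was in 25.3% of member windows and 6.23% of all 32851 windows. The form with AT between, which overlaps it, was in 8% and 0.971%. CCGGAAG, an ETS family site, was in 24% and 8.86%. AAGATGGC, a site of the factor YY1, was in 12% and 2.75%. The more general GGGCGG (Sp1) was in 42.7% and 35.7%, CCAAT (NF-Y) in 38.7% and 37.4%, and TATAAA (TBP) in 10.7% and 13.6%. Member windows were also richer in G and C, with a median of 58.7% against 52.7%, and held a median of 19 CG pairs against 7, and the part of base composition in these shares was not tested. A match is only a run of letters and not a bound site.

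**Figure D4:**
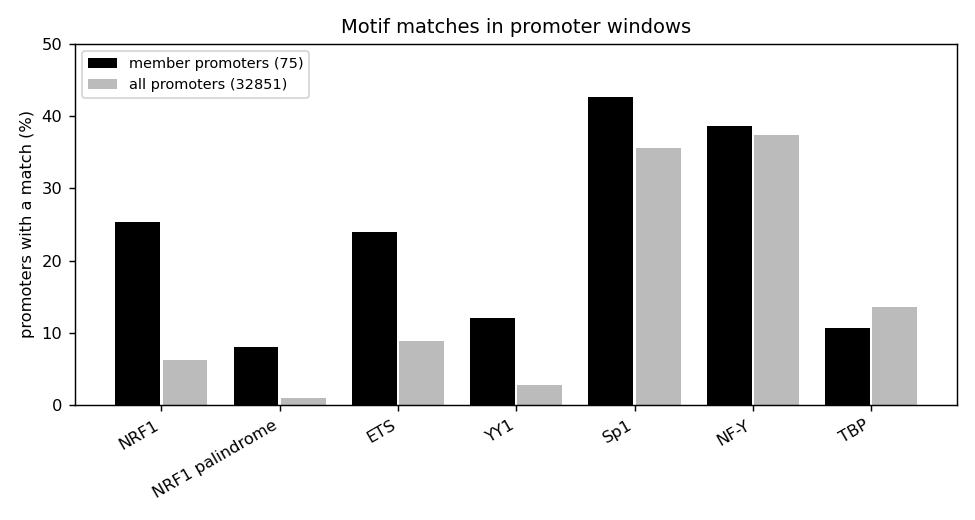
Percent of promoter windows with at least 1 match on either strand (y axis) for 7 motifs (x axis), in the 75 member windows (black) and all 32851 windows (grey). The NRF1, ETS and YY1 letters are more frequent in the members. The Sp1 letters are in 42.7% of member windows and 35.7% of all windows.

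Members with and without the letters were found on both sides of the threshold. Of the 14 members with a window that were higher in Brg1-/- after quantile normalization, 6 held NRF1, ETS or YY1 letters, and of the 51 that did not pass, 33 did. In Snf5-/- the counts were 4 of 10 and 36 of 57. The 250 bases upstream of the start are shown for Ndufaf7, Ndufaf1, Cox5a and Cox5b, the genes described above, and for Cox6a1 and Atp5g2 as examples of members that hold the letters. They run from 5′ to 3′ on the strand of the gene, with NRF1, ETS or YY1 letters in capitals, and lie at chr17:78936885-78937134, chr2:119662835-119663084 (minus strand), chr9:57520982-57521231, chr1:36691237-36691486, chr5:115348959-115349208 (minus strand) and chr15:102671048-102671297 (minus strand).
Ndufaf7: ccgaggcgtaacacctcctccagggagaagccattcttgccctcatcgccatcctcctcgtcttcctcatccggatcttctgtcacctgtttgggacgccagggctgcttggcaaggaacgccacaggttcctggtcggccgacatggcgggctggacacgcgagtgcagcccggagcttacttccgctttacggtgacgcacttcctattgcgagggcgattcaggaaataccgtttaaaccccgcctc
Ndufaf1: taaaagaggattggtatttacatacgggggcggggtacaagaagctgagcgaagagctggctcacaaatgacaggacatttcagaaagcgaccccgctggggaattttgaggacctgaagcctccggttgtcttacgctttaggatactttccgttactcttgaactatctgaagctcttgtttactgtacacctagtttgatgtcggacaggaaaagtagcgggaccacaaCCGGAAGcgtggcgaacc
Cox5a: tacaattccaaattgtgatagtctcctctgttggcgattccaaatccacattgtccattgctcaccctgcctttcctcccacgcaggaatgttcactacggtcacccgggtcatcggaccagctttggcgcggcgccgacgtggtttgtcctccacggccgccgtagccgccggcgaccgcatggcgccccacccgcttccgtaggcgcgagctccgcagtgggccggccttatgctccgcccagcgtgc
Cox5b: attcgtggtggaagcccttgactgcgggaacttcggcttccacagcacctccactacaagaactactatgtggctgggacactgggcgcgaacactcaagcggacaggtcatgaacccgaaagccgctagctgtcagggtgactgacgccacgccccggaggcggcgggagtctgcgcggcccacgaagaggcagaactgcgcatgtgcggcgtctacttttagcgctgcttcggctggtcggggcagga
Cox6a1: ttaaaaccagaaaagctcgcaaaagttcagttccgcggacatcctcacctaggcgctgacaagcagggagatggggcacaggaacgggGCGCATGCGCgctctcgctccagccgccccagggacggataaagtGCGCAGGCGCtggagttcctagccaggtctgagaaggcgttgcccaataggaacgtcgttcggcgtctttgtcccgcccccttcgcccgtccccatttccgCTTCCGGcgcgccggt
Atp5g2: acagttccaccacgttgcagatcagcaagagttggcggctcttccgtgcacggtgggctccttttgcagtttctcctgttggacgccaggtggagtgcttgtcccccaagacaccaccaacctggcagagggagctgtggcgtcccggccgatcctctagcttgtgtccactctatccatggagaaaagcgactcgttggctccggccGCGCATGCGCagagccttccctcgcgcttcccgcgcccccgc
Ndufaf1 holds 1 ETS match that ends 12 bases before the start. Cox6a1 holds 2 NRF1 matches and 1 ETS match, and Atp5g2 holds 1 NRF1 match. No capital appears in Ndufaf7, Cox5a or Cox5b, which says only that these letters are not in those windows.

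By complex, the members of Snf5-/- had much the same medians. The median log2 changes after quantile normalization were 0.10 for complex I, 0.08 for II, 0.13 for III, 0.10 for IV and 0.12 for V. On the deposited scale they were -0.23, -0.27, -0.23, -0.22 and -0.26. In Brg1-/- the medians were 0.16, 0.02, 0.05, 0.08 and 0.20 after quantile normalization and -0.41, -0.59, -0.54, -0.43 and -0.46 on the deposited scale. The order of the complexes in Brg1-/- thus had I and V above II and III by 0.1 to 0.2, and this difference was not tested. The 5 assembly factors of complex I had medians of -0.04 in Snf5-/- and -0.25 in Brg1-/-, below those of the subunits, with Ndufaf7 at the top in both.

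**Figure D5:**
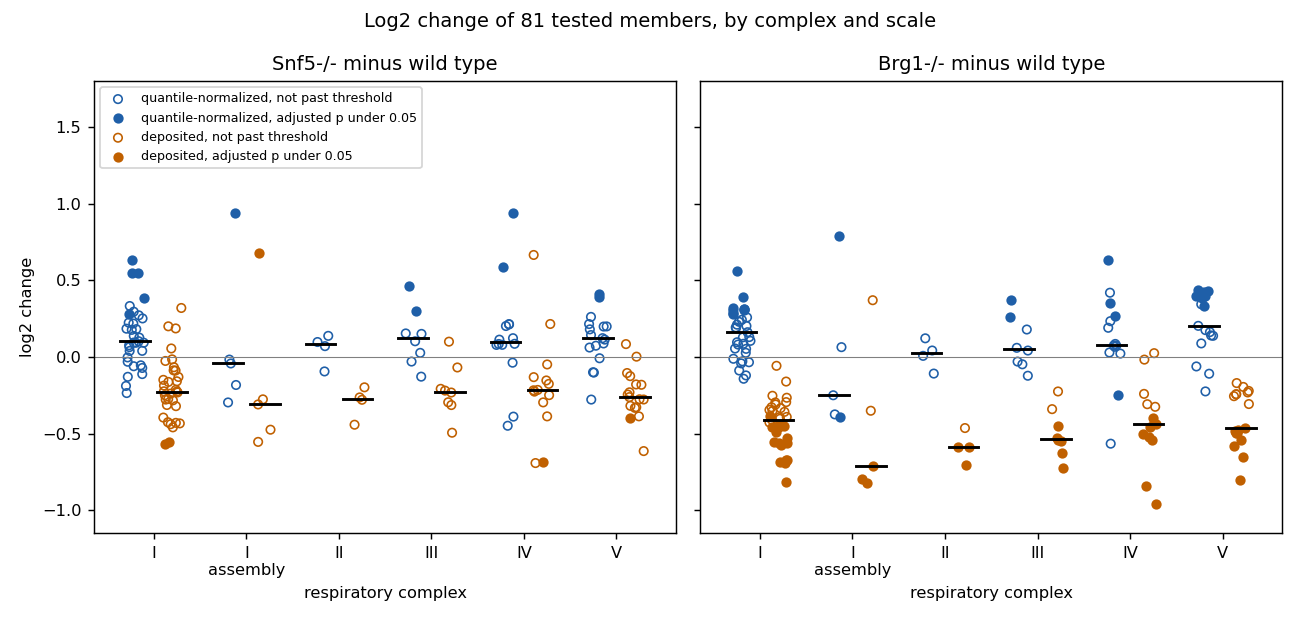
Log2 change of each of the 81 tested members (points) by respiratory complex (x axis) in Snf5-/- (left) and Brg1-/- (right), after quantile normalization (blue) and on the deposited scale (orange). Filled points passed an adjusted p of 0.05 and black bars are medians. Complex V in Brg1-/- has a median of 0.20 in blue and -0.46 in orange.

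Among the subunits of complex I, accessory subunits outnumber the core subunits, which include those that carry the flavin and iron-sulfur clusters. The accessory subunits had medians of 0.13 in Snf5-/- and 0.13 in Brg1-/- after quantile normalization, and the core subunits 0.06 and 0.20. In Snf5-/- 5 of 27 tested accessory subunits were higher after quantile normalization, and 0 of 6 core subunits were (10.6% of all genes). In Brg1-/- 6 of 27 and 1 of 6 were higher, against 14.9% of all genes (the difference between the classes was not tested). The accessory subunits that did so in Snf5-/- were Ndufa6, Ndufa13, Ndufb2, Ndufb6 and Ndufb9. Ndufa6 measured 1755, 1333 and 1049 on the wild type arrays, 1858, 1493 and 1719.7 on those of Snf5-/- and 1211, 1143, 1383 and 1109 on those of Brg1-/-. The groups overlapped in deposited intensity. The quantile-normalized change was 0.64 ± 0.11 (SE, log2; adjusted p = 0.00278, limma) in Snf5-/- and 0.39 ± 0.11 (adjusted p = 0.0165) in Brg1-/-, while the deposited changes of 0.32 and -0.16 did not pass. Ndufa13, also known as GRIM-19, gave 0.55 ± 0.09 (adjusted p = 0.00153) and 0.29 ± 0.08 (adjusted p = 0.0233), with deposited changes of 0.19 and -0.33 that did not pass. Ndufb2 gave 0.55 ± 0.12 (adjusted p = 0.00715) and 0.56 ± 0.11 (adjusted p = 0.00275), and its second probe set gave 0.44 and 0.50. The core subunit Ndufs3 was 0.31 ± 0.09 (adjusted p = 0.0278) in Brg1-/- and -0.25 on the deposited scale. Some of these calls rested on single arrays. Without wild type replicate 3, Ndufa6 in Brg1-/- had an adjusted p of 0.0868 (limma). Ndufa13 in Brg1-/- had 0.0802, 0.0986 and 0.056 without wild type replicate 2, wild type replicate 3 or Brg1-/- replicate 1. Ndufs3 in Brg1-/- missed the threshold without any 1 of the 3 wild type arrays, Brg1-/- replicate 1 or Brg1-/- replicate 4, with adjusted p of 0.0542 to 0.0905. At the other end Ndufa1 was -0.14 after quantile normalization in Brg1-/-, where it did not pass, and -0.82 (adjusted p = 3.33e-04) on the deposited scale.

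None of the 4 subunits of succinate dehydrogenase passed on both scales. Sdha, the flavoprotein that oxidizes succinate, measured 3711, 1859 and 1896 on the wild type arrays, 2318, 1803 and 2073 on those of Snf5-/- and 1724, 1617, 1902 and 1607 on those of Brg1-/-. Sdhb, the iron-sulfur subunit, measured 5001, 3845 and 3624 on the wild type arrays, 3564, 3222 and 3508 on those of Snf5-/- and 2648, 2783, 2928 and 2632 on those of Brg1-/-. Sdha is spread widely within wild type, where replicate 1 is far above the others, while all Brg1-/- values of Sdhb lie below all those of wild type. The membrane anchor Sdhc measured 3320.4, 2183 and 2132 on the wild type arrays, 2037, 1727 and 2459 on those of Snf5-/- and 1726, 1797, 1956 and 1247 on those of Brg1-/-. The other anchor, Sdhd, measured 3969.9, 2399.6 and 1974 on the wild type arrays, 2073, 1857 and 1950.3 on those of Snf5-/- and 1479, 1671, 2013 and 1438 on those of Brg1-/-. After quantile normalization the 4 genes ranged from -0.09 to 0.14 in Snf5-/- and from -0.11 to 0.12 in Brg1-/-, and 0 of 4 passed in either. On the deposited scale 3 of 4 were lower in Brg1-/-, where 44.1% of all genes were lower, from -0.58 for Sdhb to -0.70 for Sdhd, and Sdha at -0.46 did not pass (adjusted p = 0.0742, limma). Brg1-/- replicate 4 is the lowest array for Sdhc.

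In complex III, 2 of 8 genes were higher after quantile normalization in each mutant, Uqcr10 and Uqcrc2, where 10.6% of all genes were higher in Snf5-/- and 14.9% in Brg1-/-. Uqcr10, a small subunit, gave 0.46 ± 0.09 (SE, log2; adjusted p = 0.00501, limma) in Snf5-/- and 0.37 ± 0.09 (adjusted p = 0.00755) in Brg1-/-. Uqcrc2, a core protein of the complex, gave 0.30 and 0.26. Neither passed on the deposited scale, where Uqcr10 was 0.10 and -0.22. When each probe set was fitted by itself after quantile normalization, 1 of 3 tested probe sets of Uqcr10 and 1 of 2 of Uqcrc2 passed in each mutant. Those of Uqcr10 spanned a range of 0.29 in Snf5-/- and 0.63 in Brg1-/-, all of them positive. The Rieske iron-sulfur protein Uqcrfs1 gave 0.10 and 0.04 and passed in neither, and in Brg1-/- it was lower on the deposited scale (-0.54, adjusted p = 0.0198).

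Of the tissue-restricted isoforms of complex IV, Cox7a1 and Cox8b were at or near background and Cox4i2 was dim, while the widely expressed partners were measured on every array. Cox7a1 (heart and muscle) measured 22.1, 40.6 and 5.4 on the wild type arrays, 41.7, 61.7 and 29.2 on those of Snf5-/- and 5.6, 10.3, 13.3 and 15.6 on those of Brg1-/-, and Cox8b measured 25.3, 5.8 and 9.2 on the wild type arrays, 13.8, 2.3 and 23 on those of Snf5-/- and 6.7, 8.9, 10 and 26.8 on those of Brg1-/-. Both were too dim to test, at or near the array background of 26.7 to 57.4 set by 27 bacterial control probe sets. The third untested gene, Cox7c, is widely expressed, and its brighter probe set read only 64.9, 40.4 and 39.8 on the wild type arrays, 59.9, 34.6 and 78.4 on those of Snf5-/- and 30.9, 20.7, 52.5 and 49.5 on those of Brg1-/-, so these probe sets give no usable level of it. Cox4i2, the isoform of lung and hypoxia, measured 128, 113 and 120.1 on the wild type arrays, 107, 125 and 117 on those of Snf5-/- and 112, 71.1, 95.7 and 116 on those of Brg1-/-, passed the filter on 6 of 10 arrays and did not differ past the threshold. Its partner Cox4i1 measured 12194, 10138 and 9656 on the wild type arrays, 9837, 8877 and 8544 on those of Snf5-/- and 7148, 7371, 7565 and 7947 on those of Brg1-/-, with changes of 0.08 and 0.07 after quantile normalization that did not pass.

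Cox6a2, the heart and muscle isoform of subunit VIa, measured 207, 185 and 218 on the wild type arrays, 101, 133 and 148 on those of Snf5-/- and 93.5, 86.8, 158 and 92.5 on those of Brg1-/-. All mutant arrays were below all wild type arrays in intensity, and the gene passed the filter on 9 of 10 arrays. The change in Brg1-/- was -0.57 (adjusted p = 0.099, limma) after quantile normalization, which did not pass, and -0.96 (adjusted p = 0.00997) on the deposited scale. In Snf5-/- it was -0.45 and -0.69, and neither passed. Markers of skeletal and cardiac muscle were also lower in sum in the mutants. Of 11 such genes 3 were above background on all arrays and 2 on none. Their summed intensity was 5963 to 10169 in wild type, 1085 to 2248 in Snf5-/- and 795 to 921 in Brg1-/-. In wild type most of it came from Acta1, which measured 8808, 5455 and 4794 there, 778, 1135 and 440 in Snf5-/- and 346, 329, 263 and 271 in Brg1-/-. Acta1 fell in both mutants (-2.67 and -3.79 after quantile normalization). The list did not move as 1. Actc1 measured 312, 263 and 202 in wild type and 269.7, 352 and 206 in Snf5-/- and overlapped (0.35 after quantile normalization), while it fell in Brg1-/- (-0.73). Des was below wild type on all Snf5-/- arrays but did not pass after quantile normalization (-1.42), and it fell in Brg1-/- (-1.85). Ckm, the muscle creatine kinase, measured 194, 233 and 201 in wild type and 109.7, 147, 171 and 222 in Brg1-/- and overlapped, and Ckmt2 and Tnnt1 were at or below background on all 10 arrays. The part of muscle transcripts in the Cox6a2 values was not tested, and in bulk RNA fewer cells of a type and less RNA per cell cannot be told apart. Its partner Cox6a1 measured 14261, 13011 and 11623 on the wild type arrays, 11513, 10245 and 13299.8 on those of Snf5-/- and 11969, 8661, 8984 and 8921 on those of Brg1-/- and gave 0.12 and 0.07 after quantile normalization, not past the threshold.

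Cox6b2, the testis isoform of subunit VIb, measured 455, 322 and 362 on the wild type arrays, 496, 502 and 848 on those of Snf5-/- and 358, 280.2, 348 and 542 on those of Brg1-/-. Snf5-/- arrays were above all wild type arrays, most of all replicate 3, and Brg1-/- overlapped wild type. The change in Snf5-/- was 0.94 ± 0.21 (SE, log2; adjusted p = 0.00975, limma) after quantile normalization and 0.67 (adjusted p = 0.0687) on the deposited scale, which did not pass. Its partner Cox6b1 measured 12265, 9779 and 9053 on the wild type arrays, 9018, 8056 and 9512 on those of Snf5-/- and 6788, 7238, 7447 and 6846 on those of Brg1-/-, and gave 0.08 and 0.03, not past the threshold. Cox8c, another testis isoform, measured 816, 895 and 745 on the wild type arrays, 552, 542 and 438 on those of Snf5-/- and 582, 608, 578 and 611 on those of Brg1-/-. It was lower on the deposited scale in Snf5-/- (-0.69, adjusted p = 0.0131) and in Brg1-/- (-0.46, adjusted p = 0.0331), and after quantile normalization its changes of -0.39 and 0.02 did not pass. The widely expressed Cox8a measured 6526, 5294 and 4615 on the wild type arrays, 4402, 4189.6 and 4670.0 on those of Snf5-/- and 4282, 3803, 4577 and 3489 on those of Brg1-/-, and Cox7a2 measured 14634, 10348 and 9780.1 on the wild type arrays, 10296, 8249.7 and 11152 on those of Snf5-/- and 8484, 9877, 9862 and 8297 on those of Brg1-/-. Neither Cox8a (0.08 and 0.23) nor Cox7a2 (0.09 and 0.19) passed after quantile normalization. When each probe set was fitted by itself on that scale, Cox8a and Cox7a2 each had 1 of 2 tested probe sets higher in Brg1-/-. Cox6b1 had 1 of 2 higher in Snf5-/-. Ndufa4 measured 6166, 4837 and 4515 on the wild type arrays, 4794, 4060.4 and 4802 on those of Snf5-/- and 4065, 3764, 3987 and 3766 on those of Brg1-/-, so its 4 Brg1-/- arrays were below wild type in intensity although higher relative to the rest of the array.

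In complex V, the rotating c ring is encoded by 3 genes with different import sequences and the same mature protein. Atp5g1 measured 2429, 1570.4 and 1772 on the wild type arrays, 1857, 1549.6 and 1889.7 on those of Snf5-/- and 1656, 1700.0, 1902 and 1488 on those of Brg1-/-. Atp5g2 measured 5149, 4222 and 3656 on the wild type arrays, 3902, 3108 and 3681 on those of Snf5-/- and 3265, 3624, 4022 and 3535 on those of Brg1-/-, and Atp5g3 measured 18226, 15283 and 14951 on the wild type arrays, 13054, 11212 and 14397 on those of Snf5-/- and 10995, 12287, 12133 and 10739 on those of Brg1-/-. Atp5g1 and Atp5g2 were higher in Brg1-/- after quantile normalization, by 0.40 ± 0.10 (SE, log2; adjusted p = 0.0137, limma) and 0.38 ± 0.08 (adjusted p = 0.0049), and -0.17 and -0.26 on the deposited scale, where they did not pass. Without wild type replicate 2, Atp5g1 missed the threshold (adjusted p = 0.0799). Atp5g3 gave -0.06 and did not pass, and on the deposited scale it was -0.48 (adjusted p = 0.00237). In Snf5-/- the 3 genes gave 0.21, 0.09 and -0.10 after quantile normalization, and 0 of 3 passed.

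The catalytic head of complex V holds alternating alpha and beta subunits. In Brg1-/- Atp5a1 (subunit alpha) was 0.40 ± 0.08 (SE, log2; adjusted p = 0.0047, limma) after quantile normalization, whereas Atp5b (subunit beta) was -0.11 ± 0.09 (adjusted p = 0.394). On the deposited scale Atp5a1 was -0.24 (adjusted p = 0.126) and Atp5b -0.65 (adjusted p = 4.66e-04), and the difference between the genes was not tested. The other 2 probe sets of Atp5a1 gave 0.15 and 0.00 and did not pass. The members of the stalk and membrane parts that were higher after quantile normalization in Brg1-/- were Atp5o (0.43), Atp5l (0.43) and Atp5mpl (0.43), all of them negative on the deposited scale. Only 1 of 2 tested probe sets of Atp5o passed when fitted by itself, with a range of 0.31 between them. The Brg1-/- arrays of Atp5mpl overlapped wild type after quantile normalization.

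The mutants were also set against each other. Of the members, 0 of 81 passed on either scale, where 2.09% of all genes were higher in Brg1-/- and 2.27% lower after quantile normalization (4.37% together) and 0.369% and 3.93% did so on the deposited scale (limma). On both scales the shares of all genes were 0.345% and 2.08%. With each array shifted to a common median they were 0.988% and 2.49%, and again 0 members passed. In deposited intensity Brg1-/- arrays lay below all Snf5-/- arrays for 23 members (20.6% of all genes) and above them for 1 (1.74%). After quantile normalization they lay above for 5 (8.26%) and below for 5 (8.66%). At an unadjusted p of 0.05, 14 members passed after quantile normalization (21.8% of all genes) and 18 on the deposited scale (21.4% of all genes). The largest differences after quantile normalization were -0.52 ± 0.20 (SE, log2; adjusted p = 0.157) for Cox6b2 and 0.41 ± 0.16 (adjusted p = 0.162) for Cox8c. Leaving out Snf5-/- replicate 1 brought 1 member past the threshold, Atp5g2 (0.37, adjusted p = 0.0397), and leaving out Brg1-/- replicate 4 also brought 1, Cox6b2 (-0.69, adjusted p = 0.0361). A count of 0 does not show that the mutants are alike in these genes.

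Of 41 members with several tested probe sets, 0 had probe sets that passed in opposite directions in any comparison. All probe sets of a gene had the same sign in 32 of 41 genes in Snf5-/- and 34 of 41 in Brg1-/-, and the median range between probe sets of a gene was 0.11 and 0.15. Cox5a had a range of 0.86 in Brg1-/-. Counts of called members rested on wild type in part: without wild type replicate 1 the 12 members higher in Snf5-/- became 7, without wild type replicate 2 or 3 or Snf5-/- replicate 1 they became 8, and without any 1 of the 3 wild type arrays the 22 members past the threshold in Brg1-/- became 14.

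Genes that assemble or serve the respiratory chain, but fall outside the naming rule, were counted in lists. Of 29 tested assembly factors other than the Ndufaf genes, 0 rose and 3 fell in Snf5-/-, and 1 rose and 6 fell in Brg1-/- (all genes, 3.15% and 7.46%, then 3.43% and 12.9%). Their median was 0.00 and -0.03 after quantile normalization. The gene that rose was Atpaf2, an assembly factor of ATP synthase, at 1.75 ± 0.45 (SE, log2; adjusted p = 0.0125, limma) after quantile normalization and 1.31 (adjusted p = 0.0135) on the deposited scale. It was named after its values were seen, and its intensity was 160.2, 101 and 36.2 on the wild type arrays and 256, 308, 117 and 202 on those of Brg1-/-, which overlapped. Uqcc3, an assembly factor of complex III, fell in both mutants, with -0.99 ± 0.18 (SE, log2; adjusted p = 0.00289, limma) in Snf5-/- and -0.90 ± 0.17 (adjusted p = 0.00215) in Brg1-/-. Coa5, an assembly factor of complex IV, fell in both (-0.59 and -0.68), and Timmdc1, which acts in complex I assembly, fell in Brg1-/- (-0.81, adjusted p = 0.00268). Sdhaf4, an assembly factor of complex II, was higher after quantile normalization (0.65 and 0.52) but missed the threshold on the other scale. Of the tricarboxylic acid cycle and its entry enzymes, 3 of 20 fell in Snf5-/- and 5 of 20 in Brg1-/-, with 0 rising. Dlat, the acetyltransferase of pyruvate dehydrogenase, fell in both (-0.77 ± 0.13 and -0.70 ± 0.12), and Sucla2, a subunit of succinyl-CoA synthetase, gave -0.37 and -0.45. Idh1, the cytosolic isocitrate dehydrogenase, was 0.86 in Snf5-/- after quantile normalization and 0.52 on the deposited scale, short of the threshold. The lists were chosen with earlier results of these data known.

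The other mitochondrial lists are read against the shares of all genes that rose and fell, 3.15% and 7.46% in Snf5-/- and 3.43% and 12.9% in Brg1-/-. Of 74 genes of the mitochondrial ribosome, 0 rose and 1 fell (Mrps12) in Snf5-/-, and 0 changed on both scales in Brg1-/-, where 12 were higher after quantile normalization (14.9% of all genes) and 28 were lower on the deposited scale (44.1% of all genes). Their medians in Brg1-/- were 0.12 and -0.39, against 0.13 and -0.45 for the oxidative phosphorylation genes. Mrpl45 gave 0.77 (adjusted p = 9.70e-04, limma) after quantile normalization. Of 19 carriers and import genes, the import subunit Timm17a (-0.45 and -0.45) and the channel Vdac2 (-0.38 and -0.32) fell in both mutants. Of 10 genes that copy or transcribe mitochondrial DNA, Mterf3 fell in Brg1-/- (-0.35), and Tfb1m was 1.13 and 0.68 after quantile normalization, not past the threshold on the deposited scale. Of 11 regulators of mitochondrial biogenesis 0 changed on both scales. Hcfc1, a transcriptional cofactor, was 0.57 (adjusted p = 0.003, limma) in Snf5-/- and 0.55 (adjusted p = 0.00167) in Brg1-/- after quantile normalization, and 0.27 and 0.01 on the deposited scale, where it did not pass. Esrra, a nuclear receptor that acts on respiratory genes, was 0.45 (adjusted p = 0.0256) in Brg1-/- after quantile normalization and 0.03 on the deposited scale, and Gabpb1, a partner of an ETS factor, was 0.31 and 0.32 and did not pass. Outside the rule, cytochrome c (Cycs), Cyc1 of complex III and Atpif1, an inhibitor of ATP synthase, were tested. Atpif1 was lower in Brg1-/- than in Snf5-/- on both scales (-0.47 ± 0.09, adjusted p = 0.0176).

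Of the markers of the labelled cell type, 10 of 10 fibroblast genes were above background on every array. Among these Col3a1 rose in Snf5-/- (1.86 after quantile normalization) and Pdgfrb fell in Brg1-/- (-0.83). The summed intensities of the 10 genes were 99311.5 to 108228 in wild type, 108698 to 122769 in Snf5-/- and 79890.3 to 97240.0 in Brg1-/-. Macrophage and leukocyte markers summed to 3631 to 6292, 2668 to 10228 and 2194 to 4819 in the same order, with 9 of 12 above background on all arrays. Among them the complement genes C1qb (1.85 in Snf5-/- and 1.39 in Brg1-/- after quantile normalization) and C1qc (1.73 and 1.58) rose in both mutants. C1qc measured 101.9, 488.5 and 103.8 on the Snf5-/- arrays, so replicate 2 was far above the others. The other tested genes of the list did not pass after quantile normalization and went both ways. Examples are Adgre1 (1.12 and 0.01), Tyrobp (0.46 and 0.27), Cd53 (-0.07 and -0.50) and Laptm5 (-0.03 and -0.16). Brown adipocyte markers, a cell type rich in respiratory chain, summed to 559 to 665, 332 to 366 and 233 to 487, with 3 of 6 at or below background on all arrays, and Fabp4 fell in Snf5-/- (-1.07). Epithelial markers summed to 1084 to 1675, 992 to 1403 and 632 to 794, with 3 of 7 above background on all arrays, and Krt18 fell in Brg1-/- (-1.67). Endothelial markers summed to 476 to 599, 329.5 to 441 and 333 to 409, with 1 of 4 above background on all arrays. Of these Kdr fell in Brg1-/- (-0.79), while Tek rose in both mutants (1.41 and 1.89). Neural markers summed to 516 to 719, 325 to 506 and 282 to 430.4, with 2 of 5 above background on all arrays, and Map2 fell in Snf5-/- (-1.39). The neural list went both ways there. Tubb3 gave 0.16 in Snf5-/- and -0.15 in Brg1-/- and did not pass. Nefl, which was not tested, measured 1.5, 35.2 and 13.2 in wild type and 86.6, 38.7 and 128.4 in Snf5-/-. In Brg1-/-, where the arrays were dimmer as a whole, the sums of all these lists but the leukocyte one lay below those of wild type on every array. The part of other cell types in the members' values was not tested. The 3-prime to 5-prime ratio of the Gapdh control probe sets ranged from -0.43 to -0.30 (log2) in wild type, -0.30 to -0.08 in Snf5-/- and -0.31 to -0.25 in Brg1-/-, and that of beta-actin overlapped between the groups.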

How the data were processed

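The authors deposited 1 table of probe set intensity on a linear scale for 10 arrays. MAS5 is named per the submitters' processing notes, while its version, its scaling target and any filter are not given in the sources used here. Log2 values were taken without a pseudocount, and quantile normalization (limma normalizeQuantiles) gave the main scale beside the deposited one. A gene was represented by the probe set of highest mean log2 value with a single symbol in the platform annotation, at or above the 40th percentile of its array on at least 3 arrays. Here 8 further probe sets of members, with several symbols, were left out. The fit used limma 3.58.1 in R 4.3.3 with 1 mean per group (7 residual degrees of freedom), moderated by eBayes with a trend on intensity. Tests were two-sided, with Benjamini-Hochberg adjustment over 8403 genes within each of 3 comparisons. The fit was tested on simulated data with independent values and no difference in level between arrays. That test does not bear on the choice of scale. Values of every array are given for members past the threshold on both scales, the isoforms of complex IV and their partners, the Sdh genes and the c ring genes. Of each other list, genes among the 4 with the smallest adjusted p may be named, and other named genes were chosen after their values were seen. The members and lists were chosen with earlier results of these data known. Alternatives covered scaling, filter, probe set summary, trend, pairing and each array left out. The number of arrays limits the precision.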

Additional observations from a re-analysis of the deposited data

Results flagged for a closer look

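Of 81 members, 1 had an array apart from the rest of its group. Sdhc, a membrane anchor of succinate dehydrogenase, was low in Brg1-/- replicate 4 after quantile normalization, where the gap to the nearest array was 0.886 of the range of the group. Only the 4 Brg1-/- arrays were enough for this check. Chance gives such a case in about 1 in 20 members, so 1 of 81 is no more than chance would give.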

How the results depend on the processing

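Counts of members past the threshold depended most on the scale. The 12 members of Snf5-/- became 5 on the deposited scale, 5 with a common median and 7 with the members' common median, and the 22 of Brg1-/- became 45, 6 and 7. Cyclic loess and the members' common median were chosen after seeing the data. Leaving out 1 array gave 7 to 13 members in Snf5-/-, 14 to 26 in Brg1-/- and 0 to 1 between the mutants. Replicate numbers did not pair the arrays: deviations of arrays with the same number correlated at -0.07 to 0.11 over 9 pairs, 1 of them over 0.1, and 4 of 9 arrays correlated best with their own number. With the replicate block 11 members passed in Snf5-/-, 21 in Brg1-/- and 2 between the mutants, Atp5a1 (0.30) and Cox6b2 (-0.69). Of the 34 calls after quantile normalization, the direction turned for 21 on the deposited scale and for 0 under the other scalings, the filters, the mean of all probe sets, the fit without a trend and the block.

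Most members changed sign with the scale: 58 of 81 were positive in Snf5-/- and 62 in Brg1-/- after quantile normalization, and 10 and 2 on the deposited scale. Among the members followed under every alternative (those called after quantile normalization and those named by rule), the ones that passed on at least 1 scale and turned sign had deposited values, in Snf5-/-, of -0.088 for Ndufb6, -0.015 for Ndufb9 and -0.068 for Uqcrc2. In Brg1-/- they were -0.24 (Atp5a1), -0.31 (Atp5d), -0.17 (Atp5g1), -0.26 (Atp5g2), -0.23 (Atp5l), -0.20 (Atp5mpl), -0.24 (Atp5o), -0.50 (Cox4i1), -0.44 (Cox6a1), -0.54 (Cox6b1), -0.24 (Cox6c), -0.43 (Cox8a), -0.46 (Cox8c), -0.33 (Ndufa13), -0.27 (Ndufa2), -0.40 (Ndufa4), -0.16 (Ndufa6), -0.058 (Ndufb2), -0.33 (Ndufb6), -0.38 (Ndufb9), -0.25 (Ndufs3), -0.58 (Sdhb), -0.59 (Sdhc), -0.22 (Uqcr10) and -0.34 (Uqcrc2). Quantile normalization centres each array by construction, and which scale follows the amount of RNA in the cells was not tested. Cox5a in Brg1-/- ranged from -0.29 to 0.025 with 1 array left out, and the last value was without wild type replicate 1, where another probe set stood for the gene. Probe sets near background limit Cox7a1, Cox7c, Cox8b and Cox4i2.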
